A study of Mus musculus with 5 samples.

Results

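The 9 genes described here encode the machinery by which antigen-presenting cells display peptides on MHC class II, and all 9 were found among the 30478 genes of the deposited table by their symbols. They are the chain genes H2-Aa, H2-Ab1 and H2-Eb1, the peptide exchange factors H2-DMa, H2-DMb1 and H2-DMb2, the invariant chain Cd74, the transactivator Ciita and the protease Ctss. RNA was sequenced, with a strand-specific kit, from cells of C57BL/6 mice that are labelled as peritoneal macrophages (phagocytes that live in the abdominal cavity) and were isolated by FACS. The 3 control libraries came from wild-type mice (genotype wt), a male of 13 weeks (wt 1), a female of 13 weeks (wt 2) and a female of 9 weeks (wt 3). The other 2 libraries, called mutant here, came from females of 8 weeks that carry both a Samhd1 deletion (del/del) and a cGAS-GFP knock-in (ki/ki). Samhd1 encodes a dNTP hydrolase that restrains interferon responses, and cGAS is a cytosolic DNA sensor. No group carries only 1 of these 2 alleles, and the mutants are also younger, so the alleles and age cannot be told apart in any difference. What gate the sort used was not given in the sources used here. All 3 wt libraries differ in sex or age and so came from different mice, whereas nothing in the labels says so of the 2 mutant libraries, whose spread may be technical.

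MHC class II molecules are pairs of an alpha and a beta chain that are assembled in the endoplasmic reticulum with the invariant chain CD74 in the peptide groove. In late endosomes cathepsin S trims CD74, and the H2-DM heterodimer exchanges the remaining fragment for peptides of engulfed proteins, which are then shown to CD4 T cells. The transactivator CIITA binds no DNA itself but docks on the RFX, CREB and NF-Y factors that sit on the X and Y boxes of class II promoters. In macrophages its gene is induced by interferon gamma, with IRF1 among the factors involved.

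Promoter sequences were searched for the letters of the boxes that CIITA works through. The stretches below are 80 bases from the RefSeq promoter table (build GRCm38.p6), written 5′ to 3′ on the strand of each gene. They are shown because the class II chain and H2-DM genes are known targets of 1 regulator, whereas Ctss carries a different motif. Capitals mark matches, searched on both strands, to 4 motifs: the Y box core TGATTGG, an X box core spelled AACNNATG, the CREB site TGACGTCA and the interferon-stimulated response element core, which is GAAA, any 2 bases and GAAA. The marked matches do not overlap each other.
H2-Aa (chr17:34287854-34287933, minus strand): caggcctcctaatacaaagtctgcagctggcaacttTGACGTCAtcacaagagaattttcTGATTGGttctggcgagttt
H2-Eb1 (chr17:34305746-34305825, plus strand): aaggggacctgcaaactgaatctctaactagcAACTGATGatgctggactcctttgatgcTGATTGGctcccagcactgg
H2-DMb1 (chr17:34153068-34153147, plus strand): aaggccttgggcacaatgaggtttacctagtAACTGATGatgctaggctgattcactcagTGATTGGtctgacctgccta
H2-DMb2 (chr17:34145097-34145176, plus strand): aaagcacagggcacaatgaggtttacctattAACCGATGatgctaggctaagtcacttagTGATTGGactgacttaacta
Ctss (chr3:95526706-95526785, plus strand): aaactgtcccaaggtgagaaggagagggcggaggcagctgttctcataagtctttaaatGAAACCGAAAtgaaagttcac

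The Y box core began 50 bases before the start of H2-Aa, 61 before H2-Eb1, 63 before H2-DMb1 and 92 before H2-DMb2. Starts here are those of RefSeq, which for H2-DMb1 and H2-DMb2 lie inside the GENCODE gene spans given with their values. In H2-Eb1, H2-DMb1 and H2-DMb2 an X box core began 28, 29 and 29 bases ahead of the Y box core, and in H2-Aa a CREB site began 24 bases ahead of it. The 250 bases before the start of Ctss held no Y box core, a match to the X box letters 207 bases before the start, and the interferon-stimulated response element core 21 bases before it. Neither of the 2 H2-DMa starts in the table had any of the 4 motifs. Among 31396 promoter windows of 250 bases on chromosomes 1 to 19, the Y box core was in 7.10%, the X box core in 7.68%, the CREB site in 1.58% and the interferon-stimulated response element core in 2.98%. A match is a string of letters, not a bound site, and a box that is spelled otherwise would be missed. The table gave promoters for H2-Aa, H2-Eb1, H2-DMa, H2-DMb1, H2-DMb2 and Ctss of the 9 genes; H2-Ab1, Cd74 and Ciita had no entry.

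The wt libraries held 30026622 to 33119434 recovered reads, and the mutant libraries 27282354 and 28517346. A count of 0 allows up to 3 reads, or 0.0906 to 0.110 CPM by library. Samhd1 read 17824, 16777 and 18274 normalized counts in wt 1 to 3 against 1279 and 1431 in mutants 1 and 2 (log2 fold change -3.70, SE 0.0798, limma adjusted p = 1.44e-05), and Cgas 974.1, 1211 and 967.7 against 184 and 85.1 (log2 -3.04, SE 0.308, limma adjusted p = 0.00391). All 10 general macrophage markers were tested. Lyz2 and Mertk rose (log2 1.58 and 1.13, limma adjusted p = 0.0159 and 0.0243), Fcgr1 fell (log2 -1.52, limma adjusted p = 0.00123) and 7 did not pass. Over all genes tested, 3.71% rose and 4.89% fell. Adgre1 (F4/80) read 43143 to 51628 in wt and 46990 and 63455 in the mutants, and Csf1r, the receptor for macrophage growth factor, 50023 to 61232 and 71447 and 116217. Gata6 and Timd4, of the list for resident large peritoneal macrophages, had 0 reads in all 5 libraries. Cd9 of the same list read 4697 to 5242 in wt and 5117 and 4393 in the mutants, Icam2 305.1 to 367.2 and 192.8 and 147.8. Marco of it was near the floor in wt, at 4.63 to 8.97. Retnla of the list for small peritoneal or monocyte-derived macrophages had 0 reads in all 5 libraries, whereas Ccr2 of that list read 13917 to 21241 in wt. The share of reads on Rn18s, the 18S ribosomal RNA, was 0.599% to 1.64% in wt and 5.28% and 4.04% in mutants 1 and 2.

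None of the 9 class II presentation genes passed the test between mutant and wt, while the 2 mutant libraries stood far apart from each other. Class II chains were at about the wt level in mutant 2 and well below every wt library in mutant 1. The test was limma on log2(normalized count + 2), two-sided, with Benjamini-Hochberg adjustment over 14977 genes, so a fold change is that of the normalized count + 2. At an adjusted p under 0.05 it called 0 of the 9 members, beside 8.60% of all genes, of which 556 (3.71%) were higher and 732 (4.89%) lower. On CPM taken without Rn18s reads, 654 were higher and 580 lower, which turns that balance. At an unadjusted p under 0.05 it also passed 0 members, against 31.5% of all genes, and edgeR, DESeq2 and limma-voom on the recovered reads called 0 of them. The members' median log2 fold change was -0.15, beside 0.00033 for all genes tested, and 6 of the 9 were negative. In a bulk sample, fewer class II-bearing cells and less class II RNA per cell cannot be told apart.

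**Figure D1:**
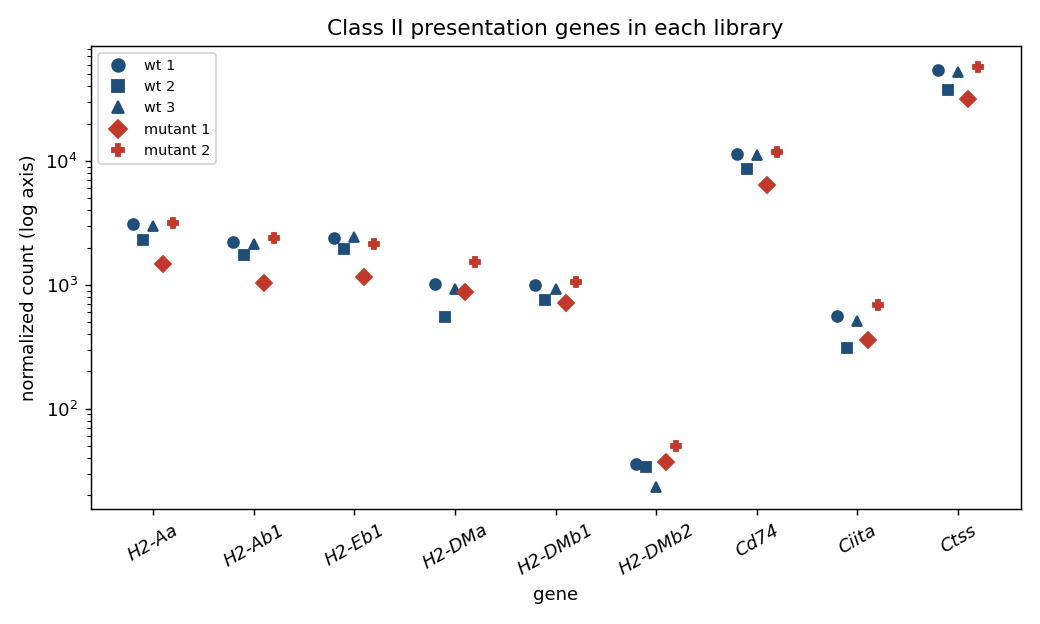
Normalized counts (log axis) of the 9 genes in each library, blue for the 3 wt and red for the 2 mutant libraries. Mutant 2 stood above mutant 1 for every gene, and Ctss and Cd74 had the highest counts.

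The chain genes read lowest in mutant 1. H2-Aa encodes the alpha chain of the I-A molecule and lies on the minus strand of chromosome 17 (GRCm38, GENCODE M21, 34282744 to 34287823). It read 3125, 2304 and 3003 normalized counts in wt 1 to 3 and 1478 and 3135 in mutants 1 and 2. Mutant 1 was at 52.6% of the wt mean and mutant 2 at 112%, so the groups overlapped. The log2 fold change was -0.37 (SE 0.31, 95% confidence interval -1.12 to 0.38, limma adjusted p = 0.448). H2-Ab1, the beta chain of I-A (chromosome 17, 34257689 to 34269419, plus strand), read 2214, 1757 and 2135 in wt and 1045 and 2378 in the mutants. Its mutant values lay on either side of all 3 wt values (log2 -0.36, interval -1.14 to 0.42, limma adjusted p = 0.481). H2-Eb1, the beta chain of I-E (chromosome 17, 34305867 to 34316674, plus strand), read 2412, 1940 and 2442 in wt and 1160 and 2131 in the mutants. In normalized counts H2-Eb1 was the only chain gene of these 3 for which mutant 2 lay inside the wt range. It had the lowest unadjusted p of the 9 members (log2 -0.52, SE 0.252, interval -1.13 to 0.09, limma unadjusted p = 0.083, adjusted p = 0.214). The intervals of all 3 genes reach below -1 and above 0 on the log2 scale, so they hold both a large decrease and no change.

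The partner of H2-Eb1 gave no reads. H2-Ea, the I-E alpha chain gene, whose promoter is known to be deleted in C57BL/6 mice, had 0 reads in the 5 libraries. Of the other class II chain genes, H2-Eb2, H2-Oa and H2-Ob were tested. Of these 3, 0 passed, beside 8.60% of all genes tested, with a median log2 fold change of -0.44. H2-Eb2 read 21.6, 27.8 and 19.5 in wt and 7.83 and 11.7 in the mutants (log2 -1.09, limma adjusted p = 0.074), with no overlap between the groups. H2-Oa and H2-Ob, which form the inhibitor of H2-DM, read 14.4 to 19.1 and 77.2 to 88.1 in wt against 10.8 and 11.7, and 71.4 and 57.4, in the mutants (log2 -0.44 and -0.35, limma adjusted p = 0.318 and 0.232). Their groups did not overlap either, a pattern shown in either direction by 51.3% of all genes tested.

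The peptide exchange genes were less low in mutant 1, or not low at all. H2-DMa, the alpha subunit (chromosome 17, 34119541 to 34139101, plus strand), read 1011, 551 and 924.1 in wt and 882.7 and 1526 in the mutants. Mutant 1 lay inside the wt range and mutant 2 at 184% of the wt mean (log2 0.53, SE 0.323, interval -0.25 to 1.31, limma adjusted p = 0.304). H2-DMb1, the main beta subunit (chromosome 17, 34153072 to 34160230, plus strand), read 990.7, 760.1 and 934.3 in wt and 709.5 and 1059 in the mutants, so the mutants bracketed the wt libraries (log2 -0.04, interval -0.50 to 0.43, limma adjusted p = 0.914). H2-DMb2, a second beta subunit gene (chromosome 17, 34143307 to 34151555, plus strand), read 35.6, 34.1 and 23.2 in wt and 37.2 and 49.97 in the mutants. It was the 1 member whose groups did not overlap, with 37.2 in mutant 1 beside 35.6 in wt 1 (log2 0.48, SE 0.274, limma adjusted p = 0.283). Groups without overlap were found upward in 24.3% of all genes and downward in 26.9%, and downward in 0 members. Reads of the 2 beta genes can be confused: their transcripts were identical at 94.6% of 1219 aligned bases, and 27.2% of the 50-base stretches of H2-DMb1 also occur in H2-DMb2. H2-DMa overlaps Brd2 on the opposite strand, and a strand setting for the counting was not given in the sources used here, so its count is uncertain.

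Cd74 and Ctss were also lowest in mutant 1. Cd74 (chromosome 18, 60803848 to 60812652, plus strand) read 11423, 8611 and 11085 in wt and 6360 and 11890 in the mutants, 61.3% and 115% of the wt mean. Its log2 fold change was -0.24 (SE 0.265, interval -0.88 to 0.40, limma adjusted p = 0.565). Ctss, the cathepsin that degrades CD74 (chromosome 3, 95526786 to 95556403, plus strand), read 54094, 37421 and 52627 in wt and 31828 and 57395 in the mutants. Mutant 1 was below and mutant 2 above all wt libraries (log2 -0.15, interval -0.82 to 0.52, limma adjusted p = 0.741). The Ctss promoter has a match to the interferon motif printed above and none to the Y box core. Ciita (chromosome 16, 10480059 to 10528418, plus strand) read 563.7, 312.3 and 507.9 in wt and 356.2 and 687.9 in the mutants (log2 0.15, SE 0.346, interval -0.69 to 0.98, limma adjusted p = 0.802). Here the lowest library of all was wt 2, and mutant 1 lay inside the wt range. Ciita overlaps Dexi on the opposite strand, which read 334.9 in wt 1 and 306.3 in mutant 1. In the authors' deposited table, all 9 adjusted p-values lay between 0.282 for H2-DMa and 1 for Ctss.

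**Figure D2:**
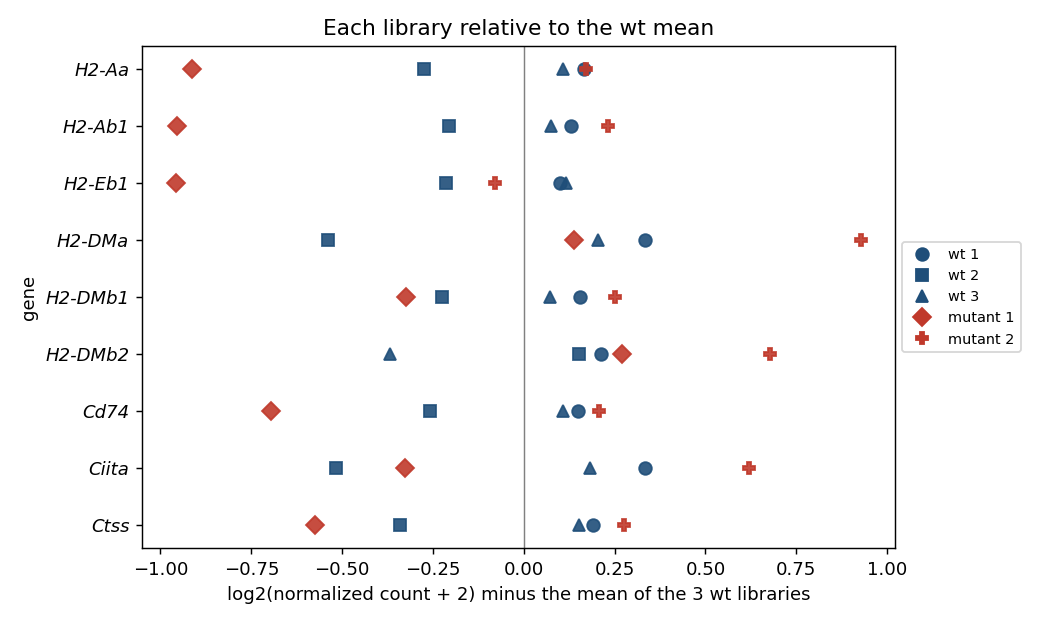
Each library's log2(normalized count + 2) minus the mean of the 3 wt libraries, for the 9 genes. Mutant 1 (red diamonds) lay at -0.91, -0.95 and -0.96 for H2-Aa, H2-Ab1 and H2-Eb1 but at 0.14 for H2-DMa, while mutant 2 (red crosses) lay at 0.17, 0.23, -0.08 and 0.93.

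Within each group, most of the members ranked the libraries alike. Mutant 2 was above mutant 1 for 9 of 9 members, against 50.6% of all genes tested, and by at least 1.5-fold for 7, against 9.35%. The ratio of mutant 2 to mutant 1 was 2.28 for H2-Ab1, 2.12 for H2-Aa, 1.93 for Ciita, 1.87 for Cd74, 1.84 for H2-Eb1, 1.80 for Ctss and 1.73 for H2-DMa. Mutant 1 was below every wt library for 6 members, against 35.7% of all genes, and mutant 2 above every wt library for 8, against 39.7%. The count of 8 depends on the scaling. For H2-Aa, mutant 2 read 3135 normalized counts against 3125 in wt 1, but 108.1 against 113.8 CPM. Cd74 likewise read 11890 against 11423, but 409.9 against 416.0 CPM. Just short of 1.5-fold lay H2-DMb1 at 1.49 and H2-DMb2 at 1.34. With 1 library on each side there is no test of this difference, and both libraries carry the same labels. Among wt libraries, wt 2 was the lowest for 8 of 9 members, against 36.3% of all genes, and H2-DMb2 was the exception. Wt 2 read 75.2% of the mean of wt 1 and wt 3 for H2-Aa, 70.1% for Ctss, 58.3% for Ciita and 57.0% for H2-DMa. Relative to the wt mean, the median of the 9 members was 0.17, -0.26 and 0.11 in wt 1 to 3 and -0.57 and 0.25 in mutants 1 and 2 on the log2 scale. The median of all genes tested lay between -0.00778 and 0.0105 in the 5 libraries. The 9 genes were chosen by name for 1 pathway. The class II chain and H2-DM genes among them are known targets of 1 regulator, so the 9 are not independent observations.

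Without mutant 1 the picture changes for several members, since 1 mutant library then remains and is assumed to vary like wt. H2-DMa would stand at log2 0.93, and H2-Aa, H2-Ab1, H2-DMb1, Cd74 and Ctss would turn positive (0.17, 0.23, 0.25, 0.21 and 0.28). Without mutant 2, H2-Aa, H2-Ab1, H2-Eb1 and Cd74 would stand at log2 -0.91, -0.95, -0.96 and -0.69. Calls of members in these fits are counted further below but are not read as evidence, since 1 mutant library shows no spread of its own. The result over all 5 libraries rests on 2 mutant libraries that differ by this much.

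Ratios between members within a library do not depend on how libraries were scaled. The ratio of H2-Ab1 to H2-Aa reads was 0.708, 0.763 and 0.711 in wt 1 to 3 and 0.707 and 0.759 in mutants 1 and 2, so the proportion of the 2 I-A chains varied little, also in mutant 1, where both were low. The ratio of Cd74 to H2-Aa was 3.65, 3.74 and 3.69 in wt and 4.30 and 3.79 in the mutants. It was higher in both, but in mutant 2 it lay close to wt 2. Ctss to H2-Aa was 16.2 to 17.5 in wt and 21.5 and 18.3 in the mutants. H2-DMb1 to H2-DMa was 0.98, 1.38 and 1.01 in wt and 0.804 and 0.694 in the mutants, and H2-DMb2 to H2-DMb1 was 0.0248 to 0.0449 in wt and 0.0524 and 0.0472. H2-Eb1 to H2-Aa overlapped between groups, at 0.772 to 0.842 and 0.785 and 0.680. An exact permutation test, two-sided, over 3 against 2 libraries cannot go below p = 0.2. It gave 0.2 for the 4 ratios without overlap, 0.4 for H2-Eb1 to H2-Aa and 0.8 for H2-Ab1 to H2-Aa (0.3, 0.48 and 0.8 adjusted over the 6 ratios). The other ratios were computed after the values were seen and are given with no test. H2-DMa to H2-Aa was 0.323, 0.239 and 0.308 in wt and 0.597 and 0.487 in the mutants, and Ciita to H2-Aa 0.180, 0.136 and 0.169 against 0.241 and 0.219. H2-DMb1 to H2-Aa was 0.317, 0.330 and 0.311 in wt and 0.480 and 0.338 in the mutants. In both mutants, H2-DMa and Ciita thus stood higher relative to H2-Aa than in any wt library. H2-DMb1 did so too, but in mutant 2 its ratio of 0.338 lay close to the 0.330 of wt 2. The ratios to H2-Aa share 1 denominator, so they are not independent observations.

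Levels of the genes can be ordered only per length. Per kilobase of the principal transcript, the wt mean was 35459 normalized counts for Ctss, 7357 for Cd74, 2492 for H2-Aa, 1679 for H2-Ab1, 1357 for H2-Eb1, 637 for H2-DMb1, 500 for H2-DMa, 76.8 for Ciita and 21.8 for H2-DMb2. Over the 5 libraries H2-Aa spanned 1310 to 2780 per kilobase, H2-Ab1 862 to 1962, H2-Eb1 695 to 1463, H2-DMb1 505 to 754 and H2-DMa 332 to 920. The range of each of these 5 overlapped that of its neighbour in the order. Such ranges set different libraries side by side: within every library H2-Aa was above H2-Ab1 and H2-Ab1 above H2-Eb1 on this scale. Ctss (23489 to 42358), Cd74 (4511 to 8433), Ciita (52.0 to 114.5) and H2-DMb2 (16.3 to 35.1) overlapped with no other member. Per kilobase of the gene length in the authors' deposited table the chains order the other way, H2-Eb1 at 1165, H2-Ab1 at 793 and H2-Aa at 740, so the order among them rests on which length is used.

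On chromosome 17 the class II genes are interleaved with genes of class I peptide supply, and only genes of the latter kind passed the test in this span. All 14 protein-coding genes that lie from H2-Oa to H2-Eb2 (GENCODE M21, GRCm38, 34092340 to 34341412) were tested. In the middle of the span the immunoproteasome genes Psmb9 and Psmb8 and the peptide transporter genes Tap1 and Tap2 fell. Tap1 read 8074, 7542 and 8431 in wt and 2782 and 2572 in the mutants (log2 -1.58, SE 0.0783, interval -1.77 to -1.39, limma adjusted p = 0.000204). Psmb8 read 3013 to 3163 in wt and 1481 and 1385 in the mutants (log2 -1.12, limma adjusted p = 0.0005), Psmb9 had a log2 fold change of -1.03 and Tap2 of -0.71. Tap2 was not called without wt 1 (limma adjusted p = 0.0584). In these 4 genes the 2 mutant libraries lay close together and below all wt libraries. On both sides of them, 0 of the 9 class II genes of the span passed, and Brd2, a chromatin reader gene next to H2-DMa, read 7572 to 7805 in wt and 7654 and 8503 in the mutants. The 95% confidence interval of Psmb9 (-1.21 to -0.84) did not overlap that of its neighbour H2-DMb1 (-0.50 to 0.43). On the other side, the interval of Tap2 (-0.91 to -0.52) did overlap that of its neighbour H2-Ob (-0.78 to 0.08). The Psmb9 interval also overlapped those of H2-Oa, H2-Ab1, H2-Aa, H2-Eb1 and H2-Eb2, so intervals do not separate the 2 kinds of gene throughout. The difference in fold change between the 2 kinds of gene was not itself tested.

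**Figure D3:**
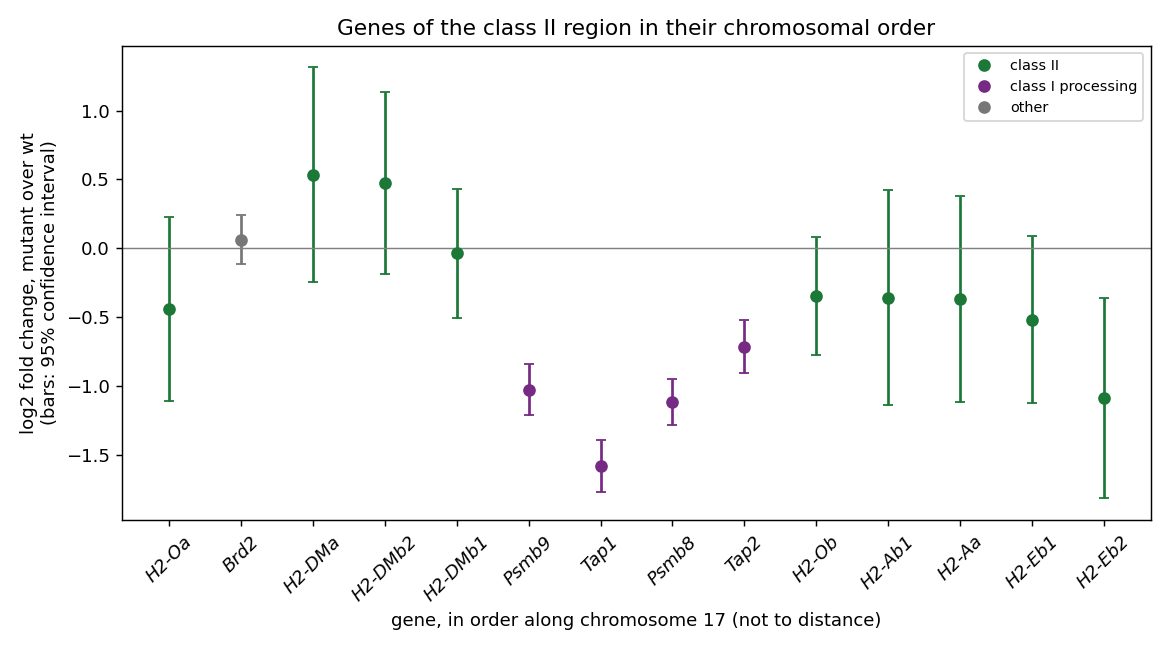
Log2 fold change, mutant over wt, with 95% confidence intervals, for the 14 protein-coding genes from H2-Oa to H2-Eb2 in their order on chromosome 17. The 4 class I supply genes lie at -0.71 to -1.58 with short intervals, and the class II genes have longer intervals, all but that of H2-Eb2 crossing 0.

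Class I genes were low in both mutants. Of 11 MHC class I comparison genes 10 fell, beside 4.89% of all genes tested, and 0 rose. H2-D1 did not pass (log2 -0.55, limma adjusted p = 0.106), and the median log2 fold change of the list was -0.74. Without 1 wt library the number that fell was 4 (without wt 1), 7 (wt 2) or 5 (wt 3). The class I transactivator gene Nlrc5, a relative of Ciita, read 4606 to 4940 in wt and 1866 and 1546 in the mutants (log2 -1.49, limma adjusted p = 0.00055). Relative to the wt mean the class I median was -0.99 in mutant 1 and -0.72 in mutant 2, whereas that of H2-Aa, H2-Ab1 and H2-Eb1 was -0.95 and 0.17. Mutant 1 was thus low for both kinds of gene, while in mutant 2 the class I median was low and the class II chain median was not, a difference that was not tested.

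Of 13 regulators upstream of Ciita tested, 3 fell, 0 rose and 10 did not pass, with a list median of 0.13. Among all genes tested, 4.89% fell and 3.71% rose. Irf1, which acts at the Ciita promoter, read 1392 to 1462 in wt and 1054 and 1138 in the mutants (log2 -0.38, limma adjusted p = 0.0328). The feedback inhibitor Socs1 fell as well (log2 -1.02, limma adjusted p = 0.0338). Both mutants were low for Irf1 and Socs1, whereas mutant 2 was not low for H2-Aa or H2-Ab1. Prdm1, whose product BLIMP1 represses Ciita in plasma cells, read 254.5, 119.4 and 230.8 in wt and 356.2 and 912.2 in the mutants (log2 1.56, limma adjusted p = 0.0868). For the interferon gamma receptor the log2 fold change was 0.39 for Ifngr1 and 0.26 for Ifngr2 (limma adjusted p = 0.147 and 0.273), and the myeloid factors Spi1 and Irf8, at -0.06 and 0.13, did not pass. Irf1 and Socs1 were not called without any 1 of the wt libraries (limma adjusted p = 0.101 to 0.158 and 0.0843 to 0.151).

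Of 10 genes tested for the partners that CIITA needs at the promoter, 1 rose and 0 fell, with a list median of 0.06. Among all genes tested, 3.71% rose and 4.89% fell. Creb1, the X2 box factor, read 2077, 2077 and 2097 in wt and 2624 and 2527 in the mutants (log2 0.31, SE 0.0634, limma adjusted p = 0.0393). It was not called without any 1 of the wt libraries (limma adjusted p = 0.126 to 0.172). The RFX subunit gene Rfxank had a log2 fold change of 0.35 (limma adjusted p = 0.13), Rfx5 of 0.13 and Rfxap of 0.08, and the NF-Y subunit genes Nfya, Nfyb and Nfyc of -0.04, -0.21 and -0.04. Rfx5 read 446 to 545 in wt and 494.2 and 557.1 in the mutants, with no low value in mutant 1.

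Of 18 endolysosomal processing genes tested, which supply peptides and remove CD74, 1 fell and 0 rose, with a list median of 0.18. That is near the 4.89% of all genes tested that fell, and 3.71% rose. Sppl2a, the membrane protease that clears the last CD74 fragment, read 9081 to 9443 in wt and 7505 and 7652 in the mutants (log2 -0.29, limma adjusted p = 0.0445). It was not called without any 1 of the wt libraries (limma adjusted p = 0.126 to 0.189). Cathepsin K (Ctsk, log2 0.76), the tetraspanin genes Cd63 (0.47) and Cd82 (0.23) and the thiol reductase gene Ifi30 (0.23) had limma adjusted p of 0.0567, 0.0538, 0.0985 and 0.09. Cathepsin H (Ctsh) was at 3337, 2034 and 3205 in wt and 2230 and 4451 in the mutants. Marchf1, the ubiquitin ligase that sends class II from the surface to degradation, read 1607, 1174 and 1559 in wt and 1243 and 2540 in the mutants (log2 0.31, limma adjusted p = 0.514). Wt 2 and mutant 1 were the 2 lowest libraries for Marchf1 and Ctsh, with mutant 1 inside the wt range, unlike for the class II chains. Mutant 1 read 385948 for Ctsb, above all wt libraries (333414 to 374920).

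Apart from the members, the tested genes of at least 100 normalized counts with the profile most like the mean of H2-Aa, H2-Ab1 and H2-Eb1 were ranked by the root mean square difference of centred log2 values over the 5 libraries. The 10 nearest were Tmcc3, Ctse, Gbp5, Tgm2, Klf4, Aif1, Ifrd1, Ltbp3, Ms4a6b and Pmaip1, at 0.0889 to 0.149. Members stood at 0.098 for Cd74, 0.157 for Ctss, 0.239 for H2-DMb1, 0.321 for Ciita, 0.503 for H2-DMa and 0.554 for H2-DMb2, so all of these but Cd74 were less like the chains than the 10 genes. Ctse, another endosomal protease (cathepsin E), read 275.2, 197.4 and 282.7 in wt and 145.8 and 291.3 in the mutants. Tmcc3 read 521.4, 414.6 and 545 and 237.8 and 456.1. Klf4, a transcription factor of monocytes, read 2329, 1546 and 2292 and 1178 and 2041. None of the 10 passed the test between mutant and wt (limma adjusted p = 0.132 to 0.682). A likeness over 5 libraries, of which 1 stands low, is met by many genes, and 7.07% of all genes tested had wt 2 lowest in wt, mutant 1 below every wt library and mutant 2 above mutant 1, as 6 of the 9 members had.

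Other class II-bearing cells could be present after a sort, so their markers are given beside these values. B cells express class II constitutively. Of 15 B cell markers 13 were tested, of which Ighm rose and 0 fell, with a median log2 fold change of 0.90. In the whole test 3.71% of genes rose and 4.89% fell. The B cell markers summed to 3028 to 3659 normalized counts in wt and 6027 and 7018 in the mutants, most of it Ighm at 2179 to 2838 and 4753 and 6012 (log2 1.16, limma adjusted p = 0.0105), and no marker was at 0 in all libraries. Ighm was not called without wt 1 or without wt 3 (limma adjusted p = 0.0742 and 0.0676), nor Ccr7 of the dendritic list without any 1 wt library (0.0844 to 0.139). Markers of the list differed in which mutant library was the higher. Ms4a1 read 26.5, 43.1 and 17.6 in wt and 99.8 and 33.0 in the mutants, and Pax5 19.5 to 31.4 and 94.9 and 30.8. Higher in mutant 2, like Ighm, were Cd22 at 61.0 to 99.5 in wt and 111.6 and 173.3 in the mutants, and Cd79b at 262.9 to 376.4 and 375.8 and 410.4. Of 12 dendritic cell markers 11 were tested, of which Ccr7 fell (log2 -1.18, limma adjusted p = 0.0305) and 0 rose, with a median of -0.40. They summed to 1243 to 1413 in wt and 1162 and 1103 in the mutants, with Flt3 at 17.1 to 26.5 and 28.4 and 39.3 and none at 0. Of 10 markers of small peritoneal or monocyte-derived macrophages, Mrc1 and Fcrls rose (log2 0.57 and 1.23), Folr2 and Ly6c2 fell (-1.30 and -2.08) and 3 did not pass, summing to 78242 to 79732 in wt and 105176 and 111871 in the mutants. Mrc1 and Fcrls, like Lyz2 and Mertk, were not called without any 1 of the wt libraries (limma adjusted p = 0.0606 to 0.168), nor Folr2 without wt 1 (0.0535). Ccr2 among them read 21241, 13917 and 20645 in wt and 11526 and 17540 in the mutants, lowest in wt 2 and mutant 1 like the chains. The part of these cells and of the Rn18s share in the class II values was not tested.

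**Figure D4:**
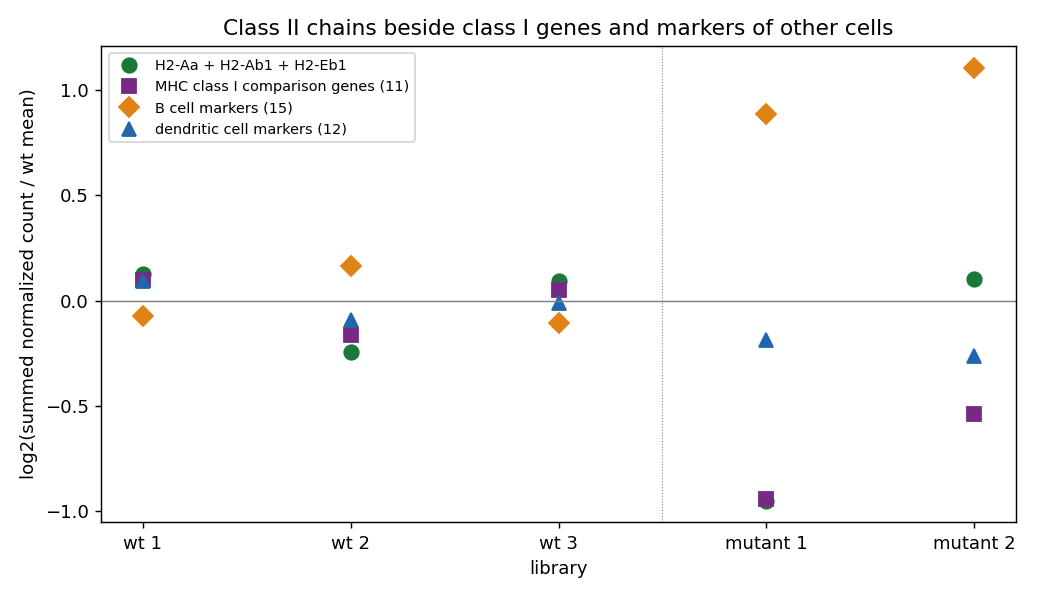
Summed normalized counts of 4 gene groups in each library as log2 of the ratio to the wt mean. Class II chains and class I genes lie together in mutant 1 and apart in mutant 2, while summed B cell markers are high in both mutants and summed dendritic cell markers are slightly low.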

How the data were processed

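RNA of 5 libraries, 3 wt and 2 mutant, was compared. Per the submitters' processing notes, STAR, featureCounts from Subread, DESeq 1.6.1 and build mm10 were used; settings and annotation release were not given in the sources used here. A signal was deposited by the authors a signal per gene and library that is a read count divided by 1 size factor, as judged from the values: 100% were whole multiples of 1 read within 0.001 reads, so reads were recovered. The deposited log2 fold change reads as wt over mutant, because its sign matches the difference of the deposited group means in 100% of their 2185 calls. Deposited p-values and adjusted p-values are quoted only for the members; the deposited GC percent, the test statistic and the weight, a score, were not used. The 3266 genes without a read in these libraries all have a mean above 0 in the deposited table, so the authors' fit drew on libraries not analysed here.

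Genes at 10 or more normalized counts in at least 2 libraries entered limma 3.58.1 (R 4.3.3), run on log2(normalized count + 2) with the prior variance following intensity. The recovered reads went into edgeR 4.0.16 (quasi-likelihood, TMM), DESeq2 1.42.0 and limma-voom as alternatives; edgeR called 1311 genes. Exact permutation tests used scipy 1.17.1. Members and lists were chosen with earlier results of these data known, so no list is tested. The share to set beside each list count is that over all genes tested, 3.71% higher and 4.89% lower. Named genes are the members, Samhd1, Cgas, list members of lowest adjusted p or past the threshold, the most abundant marker of other cell types and the 10 nearest profiles; others were named after their values were seen. Coordinates and principal transcripts are from GENCODE M21 (GRCm38) by Ensembl identifier. Each library was counted as 1 sample. Replicate libraries differed by more than sampling noise (mean chi-square per gene 14.5 to 62.3 within groups). That does not show that the 2 mutant libraries came from different mice, and if they did not, the p-values would overstate the evidence. Limits from counts cover counting error only. Some genes of the lists are counted in them but not reported here by name.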

Additional observations from a re-analysis of the deposited data

How the results depend on the processing

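No member was called under any change of pseudocount, filter, scaling, trend, prior or tool, or without a wt library. H2-DMb2 was not tested at a minimum of 50. A fit without mutant 1 or without mutant 2 keeps 1 mutant library, which shows no spread of its own and is assumed to vary like wt. Counts of called members or genes from such a fit are therefore no evidence of a difference between the groups. Leaving out 1 library gave 0 to 4 members called (1 without mutant 1, 4 without mutant 2) and a member median of -0.57 to 0.25. Log2 fold changes then ranged from -0.91 to 0.17 for H2-Aa, -0.95 to 0.23 for H2-Ab1, -0.33 to 0.25 for H2-DMb1 (0.04 without wt 1), -0.69 to 0.21 for Cd74, -0.33 to 0.62 for Ciita (-0.11 without wt 2) and -0.57 to 0.28 for Ctss. Genes called went from 1288 (556 higher, 732 lower) to 493 (141 and 352) with no intensity trend and 2429 (1121 and 1308) by DESeq2. Without 1 library they were 202 to 4991 (29 to 2062 higher, 173 to 2929 lower), with 202, 366 and 214 without wt 1, wt 2 and wt 3 and 4991 without mutant 1. Called members of the other lists numbered 29, 15 with no intensity trend and 7 to 59 without 1 library. The median gap between the mutants was 0.88 on the log2 scale and 0.80 to 0.88 under the other scalings and pseudocounts, and 9 or 10 of the 10 nearest profiles recurred. Nothing in the labels says that equal replicate numbers pair these libraries. Deviations from the group means correlated at -0.23 for number 1 and -0.36 for number 2 across genes. Deviations of 2 mutants from their own mean mirror each other, so these correlations cannot decide whether numbers pair. With a replicate block, which leaves 1 residual degree of freedom, 81 genes (6 higher, 75 lower), 3 list members and 0 class II members were called, and Cgas was at -3.10 (limma adjusted p = 0.0703). The cause of these differences was not tested. Counting error is largest for H2-DMb2, at 25 to 47 reads a library, beside 348 reads or more for each other member.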

Other observations

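Costimulatory genes, whose products act beside class II when T cells are primed, gave 0 calls among 5 tested, beside 8.60% of all genes. Their median log2 fold change was -0.20. Cd86 read 908.6, 1010 and 959.3 normalized counts in wt 1 to 3 and 594 and 930.3 in mutants 1 and 2, so mutant 1 was again the low library (log2 -0.37, limma adjusted p = 0.227). Icosl, the ligand of ICOS, read 904.6 to 917.6 in wt and 764.3 and 737.8 in the mutants (log2 -0.28, limma adjusted p = 0.0676), with both mutants below wt. Cd274, which encodes PD-L1, read 714.3 to 803.6 in wt and 583.2 and 1106 in the mutants, on either side of the wt range, as H2-Ab1 did.

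Cd4, the coreceptor that binds class II on T cells and is also found on some macrophages, rose from 309.2, 227.9 and 309.6 in wt to 633.2 and 1226 in the mutants (log2 1.65, limma adjusted p = 0.0248), the 1 call among the 2 T and NK cell markers tested. The T cell receptor genes Cd3e, Cd3d and Cd3g read 0 to 2.78 in every library. Of 6 large peritoneal macrophage markers tested, Marco rose (log2 2.99) and Icam2 fell (log2 -0.99). Marco read 4.63 to 8.97 in wt, near the floor, and 92.97 and 43.6 in the mutants. Of 3 mast cell and eosinophil markers tested, Ccr3 fell, and Col1a1 fell as the 1 mesothelial or stromal marker tested. The shares to set beside these counts are 3.71% of all genes tested higher and 4.89% lower. None of Cd4, Icam2, Ccr3 and Col1a1 was called without any 1 of the wt libraries (limma adjusted p = 0.0595 to 0.168), nor Marco without wt 1 or without wt 3 (0.0764 and 0.0677).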
